A study of Homo sapiens with 6 samples.

Results

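The laminin chain genes LAMA1, LAMA3, LAMA4, LAMA5, LAMB1, LAMB2, LAMB3 and LAMC1 were examined in HCT116 cells, a human colorectal cancer line, with and without overexpression of cytoglobin (CYGB). The 8 genes were taken from the table of raw counts per transcript by their symbols, out of 40173 genes, and they comprised 82 of the 151453 transcripts that carried a gene. MOCK cells had received a control lentivirus and CYGB cells a lentivirus with the CYGB coding region fused to FLAG, and both were selected with puromycin into stable lines, with 3 libraries per group. The labels give the genotype of MOCK cells as wild type and that of the others as CYGB overexpression, and medium and passage range were the same for both. Each group was therefore 1 transduced and selected population, so that whatever set the populations apart and what CYGB did cannot be told apart. No source used here says that the libraries of a group came from separate cultures, so p-values measure only the spread between these libraries, which may be technical.

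Laminins are large secreted glycoproteins of basement membranes. Each is a trimer of an α, a β and a γ chain joined through a long coiled coil. The end of the α chain binds integrins and dystroglycan on the cell surface, while the short arms join laminins into a sheet. The α5 chain, encoded by LAMA5, is the main α chain of adult epithelial basement membranes and pairs with β1 or β2 (LAMB1, LAMB2) and γ1 (LAMC1). The α3 chain (LAMA3) joins β3 (LAMB3) in the laminin that anchors epithelia through hemidesmosomes.

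The libraries summed to 58138393 to 66035266 counts. Transcripts without a gene held 18.6 to 19.5% of these and were left out of library sizes. CYGB itself had raw counts of 10, 28 and 34 in the MOCK libraries against 34935, 27681 and 32333 in the CYGB libraries. Of 8 epithelial markers, 5 reached a mean of 1 CPM, the count scaled to library size, with summed levels of 4104 to 4576 CPM in MOCK and 4176 to 4463 CPM in CYGB. Summed fibroblast markers had 45.5 to 55.1 CPM over all libraries, of which only COL1A1 had a mean above 1 CPM. Leukocyte markers summed to 11.3 to 26.0 CPM, with only CD68 above that level, and endothelial markers to 0.923 to 2.32 CPM, with only VWF above it. No marker was at 0 in all 6 libraries.

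LAMA5 was the laminin chain with the large difference between the groups. It had raw counts of 1893, 1753 and 2273 in the MOCK libraries against 565, 557 and 590 in the CYGB libraries. Every CYGB library lay below every MOCK library, and the former lay close together. Scaled to library size, LAMA5 averaged 39.1 ± 5.54 CPM in MOCK and 11.1 ± 0.145 CPM in CYGB (SD, n = 3 each). On the log2 scale CYGB over MOCK was -1.81 (standard error 0.14), that is 3.52-fold lower in CYGB cells. LAMA5 was selected on this difference in counts between CYGB and MOCK. The other chains were chosen by their membership of the family beside it. The value is therefore a description, and no p-value is given for it or for the other members. Where members are set against the threshold of the methods below, that is a description too. In bulk RNA, fewer cells with the transcript and less of it per cell cannot be told apart.

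The other members differed far less between the groups. Of the 8, 7 passed the filter on low counts, and LAMA1 did not. Only LAMA5 passed the threshold of the study's methods, that is an unadjusted p no higher than 0.01 together with a ratio of 2 or more or of 0.5 or less, which 0.565% of the 19987 tested genes passed in either direction and 0.285% in the lower direction. The groups did not overlap for LAMA5 and LAMB2, which was the case for 11.0% of tested genes. The median log2 fold change of the 7 members was 0.02, against -0.01 over all tested genes. Nothing is read from these counts, because the same contrast was in view when the members were chosen.

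**Figure D1:**
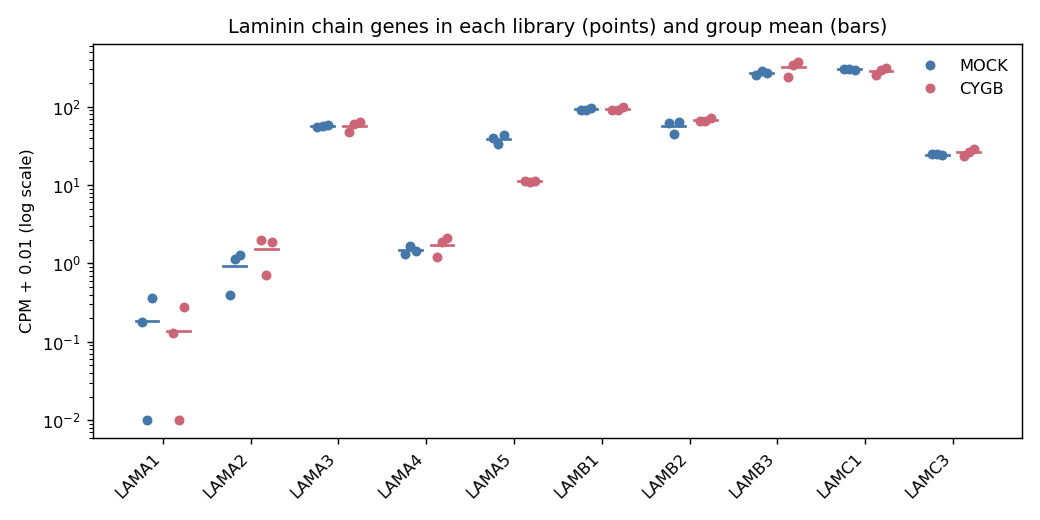
Level of each laminin chain gene (CPM plus 0.01, log axis) in the 3 MOCK and 3 CYGB libraries, with bars at the group means. LAMA5 sits between 33.1 and 44.1 CPM in MOCK and between 10.9 and 11.2 CPM in CYGB, while the points of the other abundant chains lie at similar heights in both groups.

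LAMA5 (ENSG00000130702) lies on the minus strand of chromosome 20 of GRCh38, from 62307955 to 62367312. The table lists 14 transcripts of it. One of them, ENST00000252999 (chr20:62309065-62367312), is the full coding transcript, of 11426 bases and 80 exons. ENST00000497053, of 723 bases, is the only other transcript typed as protein coding, and it had at most 1 count in a library. GENCODE 29 types 8 of the others as retained intron, which are short pieces that hold intron sequence and encode no full chain. Of the 13 transcripts other than ENST00000252999, 7 begin more than 50 kb past the start of the coding transcript, near its 3′ end. Intron borders are shown next for the most abundant of these 8 pieces only, because these bases set them apart from the coding transcript. In each pair the capitals mark the 30 bases before the shared exon, which are intron in the piece and the preceding exon in the coding transcript. The lower case letters are the shared exon, from 5′ to 3′ on the minus strand. Lengths and positions are those of the whole intron. ENST00000495695 and ENST00000471042 begin inside theirs, at 62310412 and 62316322, so they hold only its 3′ part.
ENST00000495695, intron of 107 bases before exon 77 (chr20:62310312-62310418): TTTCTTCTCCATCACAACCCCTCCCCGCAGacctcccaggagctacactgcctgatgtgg
ENST00000252999, exon 76 to exon 77: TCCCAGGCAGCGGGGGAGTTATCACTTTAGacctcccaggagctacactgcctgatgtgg
ENST00000370691, intron of 73 bases before exon 61 (chr20:62314726-62314798): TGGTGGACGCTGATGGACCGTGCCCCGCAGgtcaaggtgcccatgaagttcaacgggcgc
ENST00000252999, exon 60 to exon 61: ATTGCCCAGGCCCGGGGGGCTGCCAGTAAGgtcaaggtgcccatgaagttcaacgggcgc
ENST00000471042, intron of 612 bases before exon 58 (chr20:62316059-62316670): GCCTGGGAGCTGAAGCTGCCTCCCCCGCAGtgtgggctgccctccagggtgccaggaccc
ENST00000252999, exon 57 to exon 58: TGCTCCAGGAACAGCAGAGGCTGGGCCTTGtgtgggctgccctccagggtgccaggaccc
ENST00000491036, intron of 107 bases before exon 67 (chr20:62312781-62312887): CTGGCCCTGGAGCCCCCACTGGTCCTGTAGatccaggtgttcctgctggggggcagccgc
ENST00000252999, exon 66 to exon 67: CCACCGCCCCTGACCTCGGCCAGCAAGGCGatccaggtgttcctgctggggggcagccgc

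The coding transcript carried most of the LAMA5 difference. ENST00000252999 had raw counts of 1208, 976 and 1517 in the MOCK libraries against 93, 85 and 68 in the CYGB libraries. No CYGB library came near a MOCK library. On the scale of the gene counts it lay at 24.5 ± 5.57 CPM for MOCK and 1.60 ± 0.279 CPM for CYGB (SD, n = 3 each), a ratio of means 15.3-fold lower in CYGB. Fitted per transcript, its log2 fold change was -3.92 (standard error 0.32). It was the only 1 of the 9 tested LAMA5 transcripts past the threshold of the methods, which 1.02% of the 66609 tested transcripts passed in either direction and 0.482% in the lower direction, and nothing is read from this count either.

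The other LAMA5 transcripts moved much less. Together they had raw counts of 685, 777 and 756 in the MOCK libraries against 472, 472 and 522 in the CYGB libraries. These groups did not overlap, and their means of 14.6 ± 0.113 CPM in MOCK and 9.51 ± 0.360 CPM in CYGB (SD, n = 3 each) lay 1.54-fold apart. The 8 retained intron transcripts accounted for most of them, 622, 713 and 634 counts for MOCK against 427, 452 and 467 for CYGB. As a result the coding transcript held 63.8, 55.7 and 66.7% of the LAMA5 counts in MOCK libraries and 16.5, 15.3 and 11.5% in CYGB libraries. The retained intron transcripts held 27.9 to 40.7% in MOCK and 75.6 to 81.1% in CYGB.

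Among the short pieces, ENST00000495695 was the most abundant. It had raw counts of 253, 246 and 305 in the MOCK libraries against 221, 160 and 242 in the CYGB libraries, without overlap. On the scale of the transcript fit the groups overlapped only just, with MOCK replicate 2 at 4.627 CPM and CYGB replicate 3 at 4.629 CPM. Its log2 fold change was -0.38 (standard error 0.29). ENST00000471042 had raw counts of 90, 142 and 113 in the MOCK libraries against 65, 71 and 67 in the CYGB libraries, without overlap (log2 fold change -0.76, standard error 0.29). On the scale of the transcript fit, it and the coding transcript were the only 2 of the 9 tested transcripts whose groups did not overlap. Groups did not overlap for 10.4% of all tested transcripts. ENST00000491036 overlapped between the groups, at raw counts of 71, 84 and 107 in MOCK against 21, 119 and 65 in CYGB. ENST00000370691 had raw counts of 168, 166 and 55 in the MOCK libraries against 83, 35 and 69 in the CYGB libraries, so that MOCK replicate 3 lay among the CYGB libraries. The 9 tested transcripts had log2 fold changes from -3.92 to -0.28 with all libraries, but single libraries decided some of the small ones. ENST00000491036 (-0.35) was at 0.076 without CYGB replicate 1 and at -1.04 without CYGB replicate 2. ENST00000464134 (-0.86) was at -4.67 without CYGB replicate 2, and ENST00000462415 (-0.28) ranged from -0.84 without CYGB replicate 1 to -0.031 without CYGB replicate 3.

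**Figure D2:**
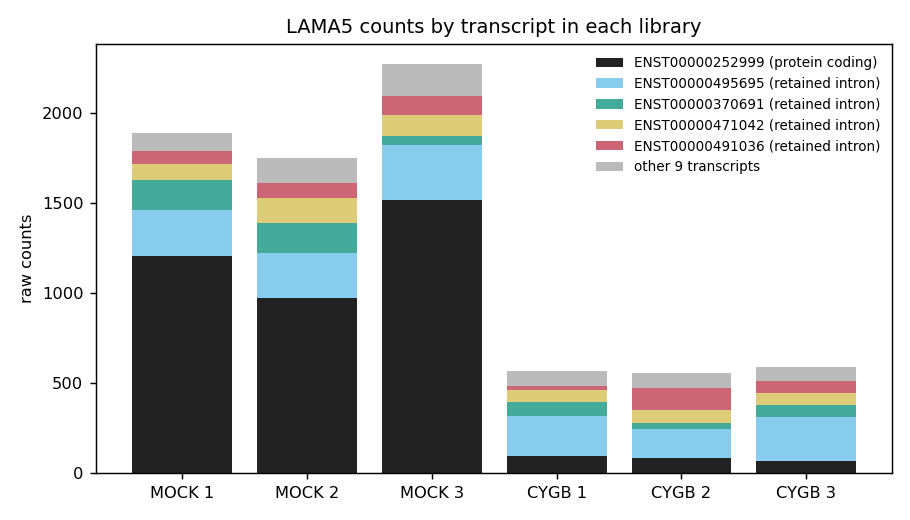
Raw LAMA5 counts in each of the 6 libraries, stacked by transcript, with the 5 most abundant transcripts shown singly. The black segment, the coding transcript ENST00000252999, falls from 976 to 1517 counts in MOCK to 68 to 93 counts in CYGB, and the segments above it change far less.

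**Figure D3:**
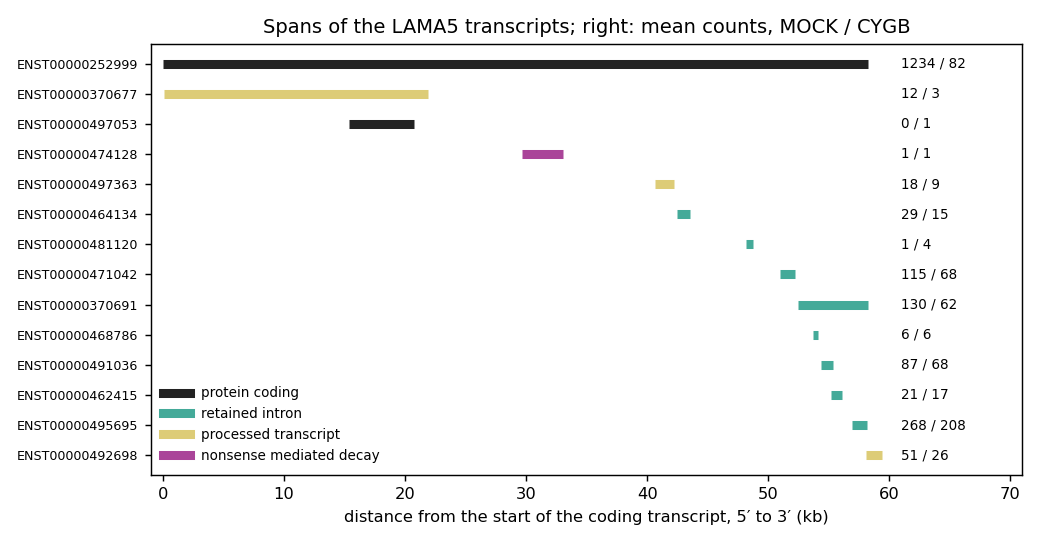
Spans of the 14 LAMA5 transcripts in kb from the start of the coding transcript, 5′ to 3′, coloured by GENCODE 29 type, with mean raw counts of MOCK and CYGB at the right. The abundant retained intron pieces lie in the last part of the gene, beyond 50 kb.

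How reads were divided among these transcripts bears on the split. Windows of 150 bases found in no other LAMA5 transcript made up 60.7% of the coding transcript. Such windows made up 15.7% of ENST00000495695, 23.4% of ENST00000370691, 30.9% of ENST00000491036 and 77.8% of ENST00000471042. The tool that divided the reads is not given in the sources used here. ENST00000492698, at the 3′ end of the locus, overlaps ADRM1 on the opposite strand, and no source used here states that strand was kept in counting. It held 0.359 to 6.90% of LAMA5 counts in any library. The table also holds 21225 transcripts without a gene. Of these, 137 rose without overlap by 50 to 150% of the fall of the coding transcript (22.8 CPM), and 104 fell by as much. They have no position, so their part in the LAMA5 result was not tested. The neighbours of the gene within 100 kb were level or overlapping in most cases. ADRM1, a proteasome receptor for ubiquitin, had a log2 fold change of 0.16 and OSBPL2, an oxysterol-binding protein, 0.01. The antisense transcript LAMA5-AS1 had 4 to 12 counts in MOCK and 6 to 12 counts in CYGB. RPS21, a ribosomal protein of the small subunit, had a log2 fold change of -0.42 and CABLES2 -0.37, both with overlap. The antisense AL354836.1 had raw counts of 12, 27 and 17 in the MOCK libraries against 0, 15 and 12 in the CYGB libraries. AL121832.2 (-0.46) lay lower in every CYGB library and RBBP8NL (0.99) higher, while the sense intronic AL121832.3 overlapped at -0.22. Other than LAMA5, 0 of the tested neighbours passed the threshold of the methods with edgeR or with DESeq2. Only 1, RBBP8NL, had an unadjusted p under 0.05 with edgeR, as did 4.54% of all tested genes. Its p was 0.00956 with edgeR's quasi-likelihood test and its ratio was 1.99, so it missed the threshold only by the ratio. HRH3 was at 0 counts in every library, and AL121832.1 had at most 5.

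For the other α chains the groups overlapped. LAMA3 (ENSG00000053747, chromosome 18 from 23689443 to 23956222) had raw counts of 2625, 2960 and 3001 in the MOCK libraries against 2374, 3091 and 3371 in the CYGB libraries. The CYGB values spread around the MOCK values, and the log2 fold change was 0.02 (standard error 0.14). LAMA4 (ENSG00000112769, chromosome 6 from 112108760 to 112254939), the α4 chain typical of vessels and muscle, had raw counts of 62, 89 and 73 in the MOCK libraries against 60, 96 and 111 in the CYGB libraries (log2 fold change 0.23, standard error 0.27). LAMA1 (ENSG00000101680, chromosome 18 from 6941744 to 7117814), the α1 chain of early embryonic basement membranes, had raw counts of 8, 0 and 18 in the MOCK libraries against 6, 0 and 14 in the CYGB libraries. Both were low and overlapped between the groups, and LAMA1 had no count in 1 library of each group. LAMA2, the α2 chain of muscle laminin and no member, lay at 0.925 ± 0.479 CPM for MOCK and 1.52 ± 0.707 CPM for CYGB (SD, n = 3 each), with overlap.

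LAMA3 showed that transcript counts can move in single libraries of either group while the gene stays level. Its short coding transcript, ENST00000269217, had raw counts of 2545, 2697 and 2926 in the MOCK libraries against 2268, 1650 and 3314 in the CYGB libraries. The long one, ENST00000313654, had raw counts of 43, 245 and 51 in the MOCK libraries against 48, 1412 and 39 in the CYGB libraries. The shift was large in CYGB replicate 2 and smaller in MOCK replicate 2. The LAMA5 coding transcript was low in all 3 CYGB libraries. Whether counts moved between transcripts there too was not tested.

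Of the β chains, LAMB1 and LAMB3 overlapped between the groups and LAMB2 lay somewhat higher in CYGB. LAMB1 (ENSG00000091136, chromosome 7 from 107923799 to 108003255) had raw counts of 4294, 4864 and 4936 in the MOCK libraries against 4556, 4574 and 5216 in the CYGB libraries, a log2 fold change of 0.00 (standard error 0.08). LAMB2 (ENSG00000172037, chromosome 3 from 49121114 to 49133118) had raw counts of 2917, 2370 and 3255 in the MOCK libraries against 3297, 3384 and 3785 in the CYGB libraries. All its CYGB libraries lay above the MOCK libraries, but MOCK replicate 2 was low. The log2 fold change of 0.26 (standard error 0.15) was 0.12 without that library. For coding transcripts only it was 0.15 (standard error 0.22). LAMB3 (ENSG00000196878, chromosome 1 from 209614870 to 209652466) had raw counts of 12044, 15060 and 13846 in the MOCK libraries against 12072, 17362 and 19620 in the CYGB libraries. Here CYGB replicate 1 lay next to the lowest MOCK library and the other two above all MOCK libraries (log2 fold change 0.24, standard error 0.17). LAMB4 had no count in any library.

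Counts of β chain transcripts also moved between isoforms. LAMB3 transcript ENST00000367030 had raw counts of 2836, 0 and 16 in the MOCK libraries against 0, 0 and 2 in the CYGB libraries. LAMB1 transcript ENST00000393561 had raw counts of 591, 6 and 11 in the MOCK libraries against 1478, 55 and 27 in the CYGB libraries. The retained intron transcript ENST00000498377 of LAMB2 had raw counts of 182, 76 and 155 in the MOCK libraries against 941, 259 and 216 in the CYGB libraries. In each case the highest count belonged to 1 library, replicate 1 of MOCK for LAMB3 and replicate 1 of CYGB for LAMB1 and LAMB2. The LAMB1 transcript was also high in MOCK replicate 1. The LAMB2 transcript lay higher in every CYGB library than in every MOCK library (log2 fold change 1.76, standard error 0.73).

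The γ1 chain gene LAMC1 (ENSG00000135862, chromosome 1 from 183023460 to 183145592), the most widely used γ chain, had raw counts of 14322, 16108 and 15297 in the MOCK libraries against 12920, 14973 and 16332 in the CYGB libraries. Its groups overlapped and its log2 fold change was -0.07 (standard error 0.09). LAMC3, the γ3 chain and no member, lay at 24.4 ± 0.462 CPM for MOCK and 26.3 ± 2.69 CPM for CYGB (SD, n = 3 each). Scaled to library size, LAMA3, LAMA4, LAMB3, LAMC1 and LAMC3 each had their lowest value in CYGB replicate 1. Of LAMA2, LAMB4 and LAMC3, 2 were tested, 0 passed the threshold of the methods and 0 had an unadjusted p under 0.05 with edgeR, and 0 passed with DESeq2.

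**Figure D4:**
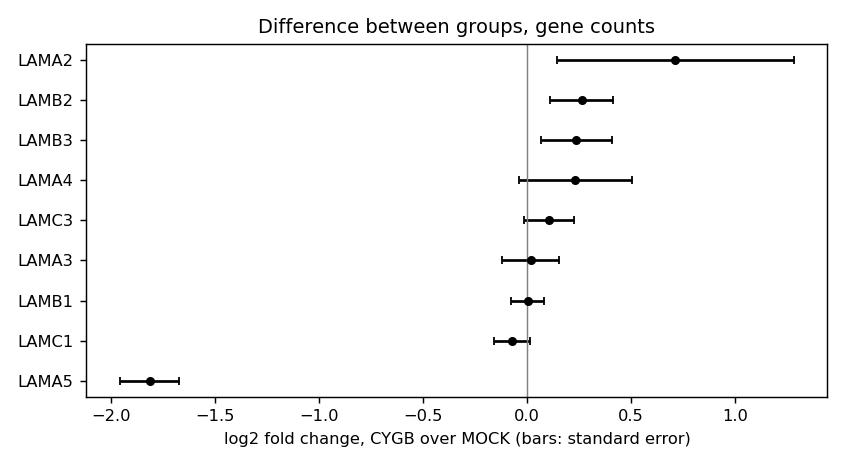
Log2 fold change of CYGB over MOCK for 9 laminin chain genes that passed the filter on low counts, with standard errors from edgeR. LAMA5 lies at -1.81 and the other 8 between -0.07 and 0.71.

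The share of coding transcripts set LAMA5 apart from the other chains by its values. In MOCK libraries protein coding transcripts held 62.1 ± 5.75% of LAMA5 counts, and in CYGB libraries 14.6 ± 2.58% (SD, n = 3 each). For LAMA3, LAMB1, LAMB3 and LAMC1 the mean share was at least 95.4% in either group. LAMB2 was at 81.7, 82.4 and 86.2% in MOCK and at 62.0, 85.1 and 84.0% in CYGB, so that only CYGB replicate 1 was low. Among 11283 genes with at least 100 counts in each library, 0.549% lost 20 points or more of coding share without overlap between the groups, and LAMA5 was 1 of these. The loss is another measure of the contrast on which LAMA5 was chosen.

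Levels of different chains were compared per length, as TPM, a length-scaled share of each library, computed with the GENCODE 29 length of each transcript. LAMB3 ranked first, with a mean of 141 TPM over the 6 libraries, and LAMC1 second, with 76.7 TPM, each without overlap with the next chain described here. In MOCK libraries LAMB1 (41.3 ± 2.24 TPM), LAMA5 (40.0 ± 3.36 TPM) and LAMB2 (39.5 ± 6.05 TPM) followed and overlapped one another (SD, n = 3 each). In CYGB libraries LAMB2 (52.1 ± 12.8 TPM) and LAMB1 (45.6 ± 1.57 TPM) overlapped, and LAMA5 (25.3 ± 1.87 TPM) stood below both without overlap (SD, n = 3 each). LAMA3 (19.9 TPM over the 6 libraries) and LAMC3 (8.25 TPM) stood below LAMA5 without overlap. This order holds for each transcript at its own length. With the gene count over its longest transcript, LAMB1 (40.4 TPM) stood above LAMB2 (27.5 TPM), and LAMA5 (5.48 TPM) below LAMA3 (13.4 TPM) and LAMC3 (10.4 TPM), as means over the 6 libraries. LAMA4 (0.969 TPM), LAMA2 (0.785 TPM) and LAMA1 (0.0313 TPM) were last among chains with counts, with each transcript at its own length. In that same setting LAMB3 made up 61.4 ± 3.59% of the summed β chain level in MOCK and 60.7 ± 8.75% in CYGB (SD, n = 3 each), with overlap between the groups.

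The α chain makeup depended on which LAMA5 transcripts were counted. With each transcript at its own length, LAMA5 had 36.9, 39.6 and 43.6 TPM in MOCK and 23.5, 27.2 and 25.0 TPM in CYGB, and LAMA3 had 20.3 ± 1.01 TPM in MOCK and 19.5 ± 2.82 TPM in CYGB (SD, n = 3 each). LAMA5 was then 64.3 ± 1.11% of the summed α chain level in MOCK and 54.4 ± 3.37% in CYGB (SD, n = 3 each). With the gene count over its longest transcript, the share was 37.6 ± 3.13% in MOCK and 14.5 ± 2.09% in CYGB (SD, n = 3 each). With protein coding transcripts only, which was tried after seeing the data, it was 17.3 ± 2.96% in MOCK and 1.71 ± 0.487% in CYGB (SD, n = 3 each). Under each of these, every CYGB library had a smaller LAMA5 share than every MOCK library, and LAMA3 made up most of the rest. LAMA5 ranked above LAMA3 only in the first, where short pieces weigh most.

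**Figure D5:**
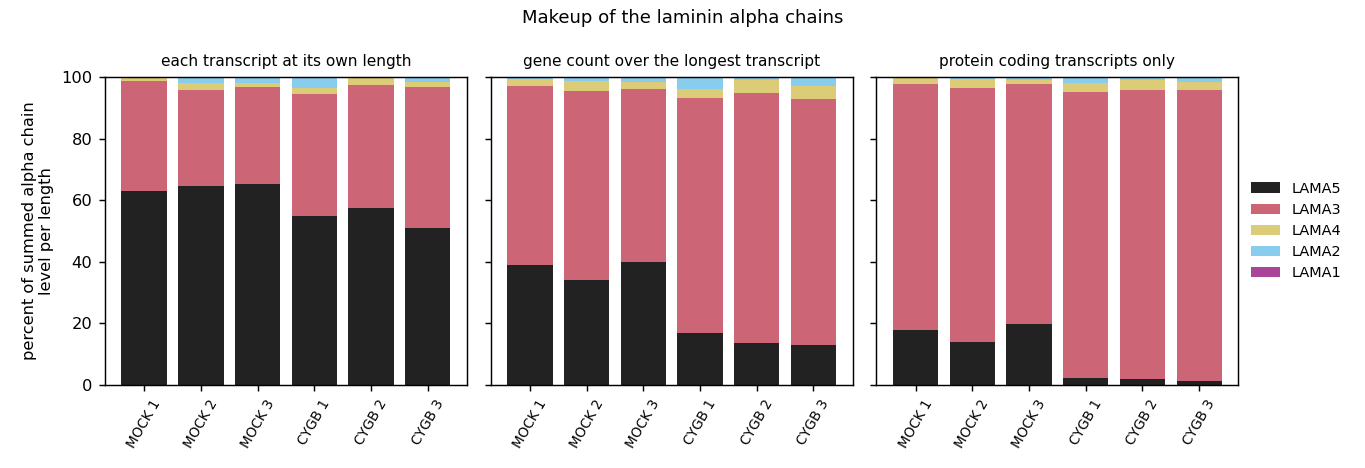
Percent of the summed α chain level per length held by each α chain in the 6 libraries, under 3 choices of length and transcripts. The black LAMA5 segment is smaller in every CYGB library than in every MOCK library, with mean shares of 64.3 and 54.4% at the left and 17.3 and 1.71% at the right.

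The receptors of laminins, a list of 14 genes written by hand, had 1 of 13 tested genes past the threshold of the methods (7.69%, against 0.565% of all tested genes), and it was lower in CYGB. This was ITGA6, the integrin α6 subunit that binds laminins with either β1 or β4. It stood at 90.9, 101 and 57.5 CPM across MOCK and at 43.3, 38.5 and 38.8 CPM across CYGB libraries. The groups did not overlap, the log2 fold change was -1.05 (standard error 0.22) and the adjusted p was 0.963 with edgeR's quasi-likelihood test, 0.0145 with DESeq2 and 0.0922 to 1.00 under the other alternatives. Leaving out MOCK replicate 1 or 2 (-0.98 and -0.88), or CYGB replicate 2 or 3 (-1.01 and -1.02), ended the call. ITGB4, its β4 partner, had a log2 fold change of 0.15, ITGB1 -0.10 and ITGA3, the other main laminin-binding α subunit of epithelia, -0.19, all with overlap. SDC1, a syndecan of epithelial cells, was the other receptor without overlap, at 156 to 172 CPM in MOCK and 133 to 144 CPM in CYGB (log2 fold change -0.26). Groups did not overlap for 11.0% of all tested genes. BCAM, a receptor of the α5 chain itself, was at 0.15 on the log2 scale (standard error 0.25). The median of the list was -0.10.

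DAG1, the dystroglycan gene, and ITGA2 differed among CYGB libraries. DAG1 stood at 286, 307 and 308 CPM across MOCK and at 35.4, 310 and 248 CPM across CYGB libraries. ITGA2 stood at 283, 282 and 291 CPM across MOCK and at 101, 303 and 129 CPM across CYGB libraries. A single library below 50% of the next lowest occurred in 5.45% of the 10147 genes that averaged 10 CPM or more in either group. It was seen in DAG1 and in the LAMA5 neighbour CABLES2, but in none of the members with that level. CABLES2 stood at 39.7, 33.2 and 9.33 CPM across CYGB libraries, and at 36.8, 33.3 and 36.0 CPM across MOCK.

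The partners of laminin in the basement membrane had 0 of 19 tested genes past the threshold with edgeR, 1 with an unadjusted p under 0.05 (4.54% of all tested genes), and 0 past the threshold with DESeq2. Their median log2 fold change was -0.06. PXDN, the peroxidase that crosslinks collagen IV, stood at 38.5, 29.7 and 28.8 CPM across MOCK and at 25.9, 18.4 and 23.3 CPM across CYGB libraries (log2 fold change -0.52, adjusted p = 0.963 with edgeR). COL15A1 stayed below 0.5 CPM in every library, with a log2 fold change of 1.03 (standard error 0.57). HSPG2 (perlecan) had 93.2 CPM in MOCK replicate 1 and 41.8 to 47.2 CPM in the other 5 libraries. COL18A1, at a log2 fold change of 0.02, and AGRN (agrin), at 0.17, were the most abundant of the list. NID1 and NID2, the nidogens that link laminin to collagen IV, had less than 1 CPM in every library.

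Genes for folding, glycosylation and cleavage of laminin had 0 of 22 tested genes past the threshold with edgeR and 0 with DESeq2. With edgeR 2 had an unadjusted p under 0.05, against 4.54% of all tested genes. The groups did not overlap for 4 of the 22, against 11.0% of all tested genes. The median log2 fold change was -0.01. HSPA5, a chaperone of the endoplasmic reticulum, lay at 2233 to 2456 CPM for MOCK and 2531 to 2942 CPM for CYGB (log2 fold change 0.23, adjusted p = 0.963 with edgeR). MMP7, a protease of the matrix, lay at 1.24 to 1.54 CPM for MOCK and 0.771 to 1.04 CPM for CYGB (log2 fold change -0.61, adjusted p = 0.963 with edgeR). BMP1, a protease that trims laminin chains, had a log2 fold change of 0.31, with overlap.

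The genes whose levels over the 6 libraries were most like those of LAMA5 were PGAP1 (r = 0.996), AK6 (0.990), STRIP2 (0.989), PDXP (0.986) and KRR1 (0.986), by Pearson's r of log2 CPM among the 10146 other genes that averaged 10 CPM or more in either group. The likeness is over 6 libraries that share the difference between the groups, so it ranks genes by that difference too. PGAP1, which remodels lipid anchors of membrane proteins, stood at 12.8, 10.0 and 16.4 CPM across MOCK and at 0.514, 0.786 and 0.950 CPM across CYGB libraries. AK6, an adenylate kinase, had a log2 fold change of -0.59 and STRIP2 one of -0.30. PDXP, a phosphatase of pyridoxal phosphate, had a log2 fold change of -3.79 and KRR1, a factor of small ribosomal subunit assembly, one of -4.23. None of the 5 lies on chromosome 20.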

How the data were processed

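RNA-seq was made from total RNA of 3 MOCK and 3 CYGB libraries, with paired-end reads of 150 bases. The authors deposited unnormalized read counts for each transcript. The submitters' processing notes name HISAT2, DESeq2 and build hg19, but 99.5% of the 151393 transcripts found in GENCODE 29 have its GRCh38 positions, so GRCh38 is given. The counting tool is not given in the sources used here. Types and lengths are from GENCODE 29, and 101 transcripts without a length were left out of TPM.

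Counts were summed per gene, filtered with filterByExpr (minimum count 10), scaled by TMM and fitted in edgeR 4.0.16 (R 4.3.3) by the quasi-likelihood method without a replicate block, with Benjamini-Hochberg adjustment over all features. Alternatives were DESeq2 1.42.0, its size factors, no filter, a mean of at least 50 counts, a replicate block and leaving out each library. Including transcripts without a gene, and coding transcripts alone, were added after seeing the data. The steps were also run on simulated counts, with large changes set only in features with a mean of at least 50 counts. The outcome of that run is not given, so it says nothing about small changes or low counts. No library pair was alike within counting error (lowest chi-square per degree of freedom 101.9).

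Named genes were the members, list genes past the threshold or else the 2 of lowest p, neighbours within 100 kb and the 5 genes most like LAMA5. Other list genes are examples chosen after their values were seen. The members and lists were chosen with earlier results of these data known. One gene of the lists is not reported here.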

Additional observations from a re-analysis of the deposited data

How the results depend on the processing

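LAMA5, at -1.81 on the log2 scale, lay between -1.92 and -1.72 in fits that left out a library, and its coding transcript between -4.09 and -3.74. With coding transcripts only, or the most abundant one, LAMA5 was at -3.92, since the short pieces then drop out. Depth limits LAMA1, which had at most 18 counts in a library. Genes past the threshold were 113 in number, but 263 with DESeq2, 62 at a mean of at least 50 counts, 72 when rows without a gene were included, and between 125 and 177 when a library was left out (177 without MOCK replicate 3). An adjusted p under 0.05 was reached by 11 genes, but by 108 with DESeq2, by 6 when rows without a gene were included, and by 6 to 14 when a library was left out (6 without MOCK replicate 1, 7 without CYGB replicate 3). Transcripts past the threshold were 681, but 1506 with DESeq2, 321 at a mean of at least 50 counts, 390 for coding transcripts only, and from 961 to 1209 when a library was left out. The receptor count of 1 became 0 without MOCK replicate 1, MOCK replicate 2 or CYGB replicate 3, a range of 0 to 1. Without CYGB replicate 2 the gene counted was ITGA2. The count of 0 for basement membrane partners became 1 without MOCK replicate 2 (SPARC, then with no MOCK counts). That of 0 for folding and cleavage became 1 (P4HB) for coding transcripts only. Among neighbours, OSBPL2 ranged from -0.048 to 0.10 when a library was left out (below 0 without MOCK replicate 3, CYGB replicate 2 or CYGB replicate 3), and CABLES2 from -0.73 to 0.042 (above 0 without CYGB replicate 3). The causes of the other changes were not tested.

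Between libraries of the same replicate number, deviations from the group mean correlated at 0.0294, 0.0052 and 0.0310 across genes. These values show no broad shared deviation, but they cannot tell whether the libraries were made in pairs. With the replicate block LAMA5 was at -1.80, 78 genes and 291 transcripts passed the threshold, and with edgeR 0 genes reached an adjusted p under 0.05 while 764 had an unadjusted p under 0.05.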
